A study of Mus musculus with 8 samples.

Results

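The matrix metalloproteinases (MMPs), the ADAMTS proteases and the tissue inhibitors of metalloproteinases (TIMPs) were followed in reprogramming fibroblasts of the infarcted mouse heart. Members were the protein-coding genes of the deposited table named *Mmp*, *Timp* or *Adamts* with a number, which gave 45 of 54532 genes: 22 MMPs, 4 TIMPs and 19 ADAMTS genes. The choice used names and annotation and no measured value, but it was made with earlier results of these data known. One further name, *Mmp1a*, is annotated as a polymorphic pseudogene and was not a member. The cells were MICFs, primary cardiac fibroblasts isolated from the infarcted area of C57BL/6 mouse hearts on Day 6 after ligation of the left anterior descending artery. By the study's own staining such isolates were mostly fibroblasts and also held macrophages and a small share of endothelial cells. All 8 libraries carry the label MGTMyoS overexpression. MGTMyoS stands for *Mef2c*, *Gata4*, *Tbx5*, *Myocd* and *Sall4*, which the study delivered with lentiviruses under doxycycline control together with eGFP. For the *in vivo* samples the infected cells were injected into the left ventricle of 8-week-old male C57BL/6 mice at the time of ligation, and eGFP+ cells were recovered 1 week (Day 7) or 2 weeks (Day 14) later. The *in vitro* samples were eGFP+ cells of the same kind kept in culture for the same times, with 2 libraries in each of the 4 groups. The recipient mice received doxycycline, tacrolimus, methylprednisolone and mycophenolate mofetil. The study's culture medium for reprogramming held doxycycline, SB431542 (an inhibitor of TGF-β receptors) and baricitinib (an inhibitor of JAK kinases), and the labels do not say whether these libraries used it. The host tissue, the drugs and the medium therefore cannot be told apart where transplanted and cultured cells differed. Which animals or wells gave each library is not stated, so that p-values here measure only the spread between these libraries.

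MMPs are zinc-dependent endopeptidases that cut collagens, elastin, proteoglycans and many secreted or membrane-bound signalling proteins. Most are made as inactive zymogens and are held in check by TIMPs, which bind the active site. ADAMTS proteases carry thrombospondin repeats and fall into groups that trim procollagens, cleave the large proteoglycans aggrecan and versican, cleave the cartilage oligomeric matrix protein COMP, or act on fibrillin microfibrils. In the infarcted heart these enzymes take part in the removal of the old matrix and in the building of the collagen scar.

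Levels are FPKM, fragments scaled by gene length and library size, so that levels of different genes can be set side by side per length. The libraries held 12304242 to 14546904 fragments on genes. The FPKM already held a scaling between libraries. A gene was tested where its FPKM was at least 0.5 in at least 2 libraries, which 15708 genes and 35 members did (16 MMPs, 3 TIMPs and 16 ADAMTS genes). Of these 35, *Adamts16*, *Adamts19*, *Mmp8* and *Mmp10* passed only through *in vivo* libraries and none passed only through *in vitro* libraries. Differences are log2 fold changes of FPKM + 0.1 from limma, with p-values adjusted by the Benjamini-Hochberg method (BH) over all 15708 genes. A gene was called higher or lower at an adjusted p under 0.01 and a log2 fold change over 1 in size. The added 0.1 makes the fold change of a low gene smaller than the ratio of its FPKM.

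The summed FPKM of each of the 3 families was higher in the transplanted cells than in the cultured cells. The summed FPKM of the 22 MMPs was 1055 and 1103 in the *in vivo* samples at 1 week against 471 and 460.2 *in vitro*, and 1505 and 1434 against 584 and 621 at 2 weeks. For the 4 TIMPs the sums were 951 and 1026 against 748 and 709 at 1 week, and 1152 and 1161 against 544 and 561 at 2 weeks. The sums did not overlap between *in vivo* and *in vitro* samples at either week. For the 19 ADAMTS genes they were 422 and 443 against 231 and 237 at 1 week, and 536 and 478 against 236 and 237 at 2 weeks. A few genes made up most of each sum. *Mmp2* held 61.5% and 62.2% of the MMP sum *in vivo* at 1 week and 46.6% and 44.6% *in vitro*, and 75.8% and 76.5% against 58.5% and 59.7% at 2 weeks. The leading ADAMTS gene differed between the conditions. *Adamts2* held 46.7% to 52.8% of the ADAMTS sum in the 4 *in vivo* libraries and 13.4% to 18.2% in the 4 *in vitro* libraries, where *Adamts1* led with 35.2% to 43.3%. The summed TIMP level divided by the summed MMP level was 0.901 and 0.930 *in vivo* and 1.59 and 1.54 *in vitro* at 1 week, and 0.766 and 0.810 against 0.931 and 0.904 at 2 weeks. At 1 week *Timp2* was about level between the conditions (log2 fold change 0.07), and *Timp3* had less *in vivo* without being called (-0.61). The higher TIMP sum of that week thus came mainly with *Timp1*. The scaling between libraries is part of all these sums, and sums without it were not taken. The sums describe the libraries and were not tested.

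**Figure D1:**
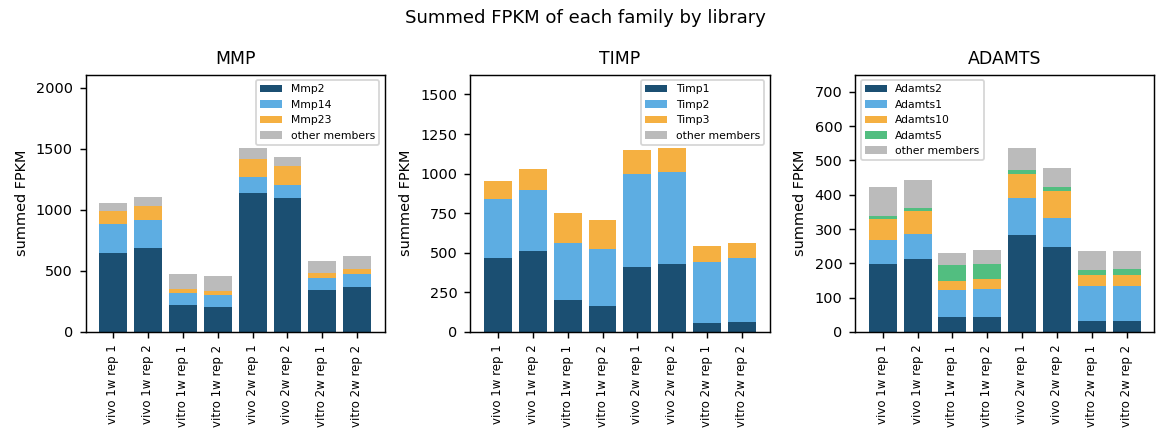
Stacked bars give the summed FPKM (y axis) of MMPs, TIMPs and ADAMTS genes in each of the 8 libraries (x axis), with the leading genes in colour and all others in grey. MMP sums lay at 1055 to 1505 *in vivo* and at 460.2 to 621 *in vitro*, and *Adamts2* (dark blue, right panel) made up most of the difference between the ADAMTS bars.

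At 1 week, 16 of the 35 members tested were higher *in vivo* and 4 were lower. Across all genes tested 7.79% were higher and 5.07% lower at that week. At 2 weeks, 13 members were higher and 4 lower, where 9.02% of all genes were higher and 8.05% lower. Of all genes called, 60.6% were higher at 1 week and 52.8% at 2 weeks, and 36.8% and 33.1% without the scaling between libraries. The members called higher were 45.7% and 37.1% of those tested, and the members called lower 11.4% at both weeks, the last near the background of 2 weeks. *Adamts16* and *Adamts19* are among the higher ones and could enter only by being high *in vivo*. Of the 31 members that passed the filter through both conditions, 14 were higher and 4 lower at 1 week (45.2% and 12.9%), and at 2 weeks 11 and 4 (35.5% and 12.9%). This count was added after the data were seen. The median log2 fold change of these 31 was 0.54 and 0.48, and of all 35 it was 0.99 and 0.54, against -0.01 and -0.00 over all genes. All 13 members that were higher at 2 weeks were also higher at 1 week, namely *Timp1*, *Mmp2*, *Mmp16*, *Mmp23*, *Mmp28* and 8 ADAMTS genes. *Mmp12* and *Mmp13* were lower at both weeks. Another 13 members were called at neither week. Both comparisons use separate libraries, and their calls come from 1 fit.

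**Figure D2:**
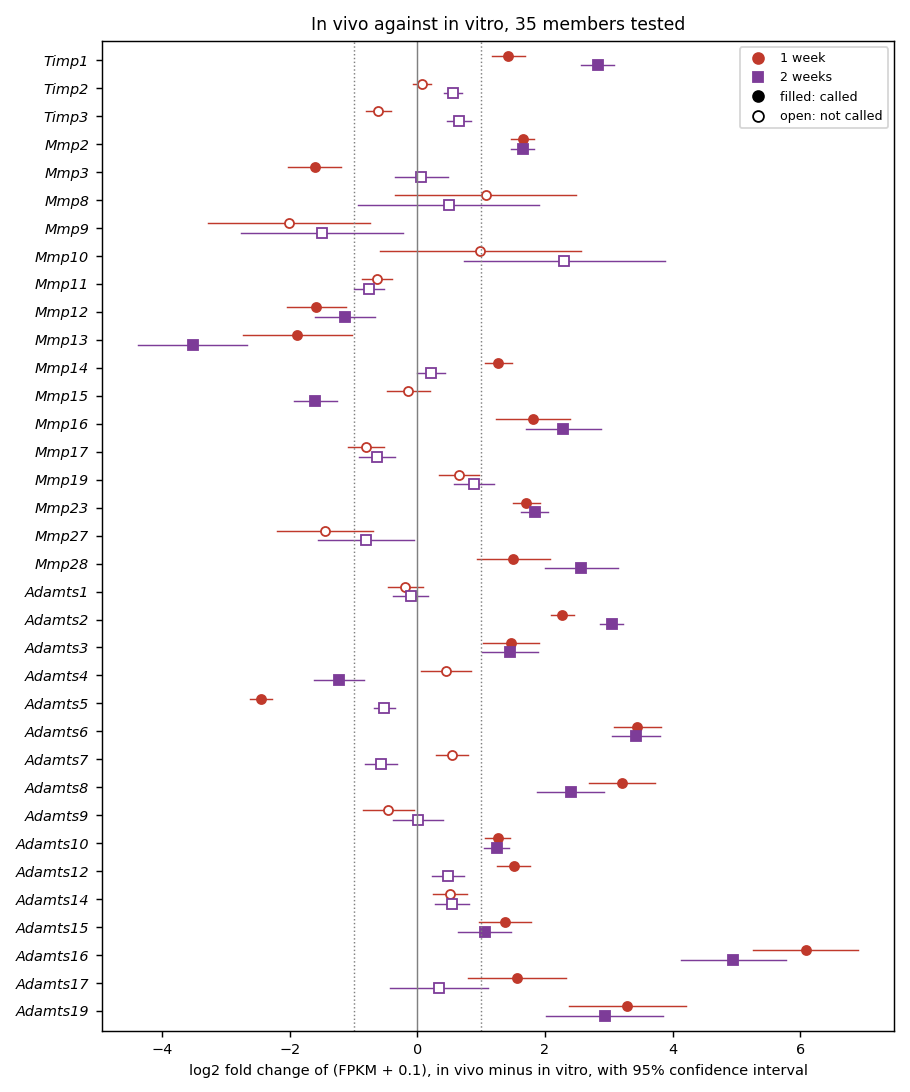
Each row is 1 of the 35 members tested, with its log2 fold change of FPKM + 0.1 between *in vivo* and *in vitro* samples (x axis) and the 95% confidence interval at 1 week (circles) and 2 weeks (squares). Filled symbols were called. The TIMPs stand at the top, and the symbols of *Adamts2*, *Adamts6*, *Adamts8*, *Adamts16* and *Adamts19* lie to the right of 2 at both weeks.

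The gelatinases cut denatured collagen and basement membrane collagen. *Mmp2* (gelatinase A) was the most abundant member *in vivo*. Its FPKM was 649 and 687 *in vivo* against 219.7 and 205 *in vitro* at 1 week, and 1139.9 and 1098 against 342 and 371 at 2 weeks. All 4 *in vivo* libraries lay above all 4 *in vitro* libraries. The log2 fold change was 1.65 ± 0.08 (SE) at 1 week (limma, BH-adjusted p = 1.05e-05) and 1.65 ± 0.08 at 2 weeks (limma, BH-adjusted p = 8.16e-06). *Mmp9* (gelatinase B), which neutrophils and macrophages also make, had 3.11 and 5.38 FPKM *in vivo* against 13.3 and 21.3 *in vitro* at 1 week, and 5.21 and 1.64 against 10.1 and 7.13 at 2 weeks. The groups did not overlap at either week, but the libraries of a group differed from each other by far more than those of *Mmp2*. The log2 fold change of -2.02 ± 0.54 at 1 week had a limma BH-adjusted p of 0.0215, the -1.50 ± 0.54 at 2 weeks one of 0.0533, and neither was called.

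The membrane-type MMPs are tethered to the cell surface, and MMP14 (MT1-MMP) cuts fibrillar collagen and activates the MMP2 zymogen. *Mmp14* had 237 and 228 FPKM *in vivo* against 94.8 and 98.1 *in vitro* at 1 week, and 127 and 106 against 99.4 and 101 at 2 weeks. The groups did not overlap at either week, but the gap at 2 weeks was small beside that at 1 week. The difference was called at 1 week, at a log2 fold change of 1.27 ± 0.09 (limma, BH-adjusted p = 6.45e-05), and not at 2 weeks, at 0.21 ± 0.09 (limma, BH-adjusted p = 0.089). The call at 1 week was lost where the values were quantile normalised (0.95) or taken without the scaling between libraries (0.93). Without that scaling the median of all genes itself moved to -0.34 at 1 week and -0.32 at 2 weeks. *Mmp15* (MT2-MMP) moved in the other direction. It had 2.77 and 3.37 FPKM *in vivo* against 3.15 and 3.62 *in vitro* at 1 week, where the groups overlapped, and 3.04 and 2.85 against 9.98 and 8.33 at 2 weeks. It was lower *in vivo* at 2 weeks by a log2 fold change of -1.60 ± 0.14 (limma, BH-adjusted p = 0.00014). *Mmp16* (MT3-MMP) was low throughout, at 1.68 and 2.47 FPKM *in vivo* against 0.495 and 0.525 *in vitro* at 1 week, and 2.15 and 1.69 against 0.309 and 0.314 at 2 weeks. It was higher *in vivo* at both weeks, by 1.81 ± 0.25 (limma, BH-adjusted p = 0.00125) and 2.29 ± 0.25 (limma, BH-adjusted p = 0.000334). Its call at 1 week was lost without the second *in vivo*, the first *in vitro* or the second *in vitro* library of that week, at log2 fold changes of 1.54, 1.77 and 1.85, with adjusted p of 4e-05 to 0.011 over all alternatives. *Mmp17* (MT4-MMP) had 3.48 and 3.35 FPKM *in vivo* against 6.42 and 5.66 *in vitro* at 1 week, and 3.01 and 2.50 against 4.29 and 4.30 at 2 weeks. The *in vivo* libraries were below the *in vitro* ones, and the log2 fold changes of -0.80 ± 0.12 and -0.63 ± 0.12 were under the size needed for a call, which the first reached without the scaling between libraries (-1.14). *Mmp24* and *Mmp25* stayed under 0.19 FPKM in every library and were not tested.

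Among the other MMPs, *Mmp23*, a membrane-anchored enzyme with a cysteine-rich array in place of the usual hinge and hemopexin domain, was the third most abundant MMP *in vivo* at 1 week. It had 105 and 116 FPKM *in vivo* against 34.3 and 33.4 *in vitro* at 1 week, and 144 and 153 against 38.3 and 44.5 at 2 weeks. Every *in vivo* library was above every *in vitro* library, and the log2 fold changes were 1.70 ± 0.09 (limma, BH-adjusted p = 1.71e-05) and 1.84 ± 0.09 (limma, BH-adjusted p = 9.49e-06). *Mmp28* (epilysin) was higher *in vivo* at both weeks at a low level, 3.33 to 4.80 FPKM *in vivo* against 0.494 to 1.19 *in vitro*, by 1.50 ± 0.24 and 2.57 ± 0.24. Its call at 1 week was lost without any 1 of the 4 libraries of that week, at log2 fold changes of 1.43 to 1.58 and adjusted p of up to 0.025. *Mmp19*, which cuts basement membrane proteins, had 15.7 and 17.4 FPKM *in vivo* against 10.2 and 10.7 *in vitro* at 1 week, and 19.5 and 14.6 against 8.90 and 9.26 at 2 weeks. Its log2 fold changes of 0.65 ± 0.13 and 0.89 ± 0.13 did not reach the size for a call, but the second reached it without the second *in vivo* library of that week, at 1.09. *Mmp11* (stromelysin-3), which is activated inside the cell by furin, had 13.5 and 12.4 FPKM *in vivo* against 21.3 and 19.0 *in vitro* at 1 week, and 10.9 and 12.3 against 20.7 and 18.7 at 2 weeks. The groups did not overlap, and log2 fold changes of -0.63 ± 0.10 and -0.76 ± 0.10 were under the size for a call, which the second reached without the scaling between libraries (-1.09).

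The collagenases, the stromelysins *Mmp3* and *Mmp10* and the metalloelastase lie together on chromosome 9, whereas *Mmp11* lies on chromosome 10. The table (mm10) puts 9 of the members and the pseudogene *Mmp1a* at chr9:7272514-7699585, a stretch of 427 kb, in the order *Mmp13*, *Mmp12*, *Mmp1b*, *Mmp3*, *Mmp1a*, *Mmp10*, *Mmp8*, *Mmp27*, *Mmp20* and *Mmp7*. Promoters of the 3 cluster genes called in these data, and of *Mmp10* as a neighbour that was not called, are shown from RefSeq (GRCm38.p6), each covering 250 bases before to 50 after the annotated start on the + strand. Capitals mark TGAGTCA, the consensus site of the AP-1 factors in either orientation (TGACTCA when read from the other strand), and TATAAA, the letters of a TATA box. Counted from the annotated start, TATAAA begins at -16 in *Mmp13*, 5 in *Mmp12*, -7 in *Mmp3* and -29 in *Mmp10*. Whether these matches act as TATA boxes was not tested. The windows are chr9:7272264-7272563 for *Mmp13*, chr9:7347124-7347423 for the start of *Mmp12* that holds these motifs, chr9:7445572-7445871 for *Mmp3* and chr9:7502092-7502391 for *Mmp10*.
Mmp13: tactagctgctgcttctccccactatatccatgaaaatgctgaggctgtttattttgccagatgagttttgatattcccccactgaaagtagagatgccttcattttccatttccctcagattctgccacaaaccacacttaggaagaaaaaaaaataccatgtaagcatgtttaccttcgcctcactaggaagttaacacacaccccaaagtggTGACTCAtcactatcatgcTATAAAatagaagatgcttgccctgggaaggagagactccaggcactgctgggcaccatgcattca
Mmp12: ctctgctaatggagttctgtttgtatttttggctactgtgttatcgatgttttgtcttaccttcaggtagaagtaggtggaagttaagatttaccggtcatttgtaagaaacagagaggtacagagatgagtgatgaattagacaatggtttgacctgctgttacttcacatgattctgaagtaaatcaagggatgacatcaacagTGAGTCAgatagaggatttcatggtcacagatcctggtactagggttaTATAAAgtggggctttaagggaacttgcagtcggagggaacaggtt
Mmp3: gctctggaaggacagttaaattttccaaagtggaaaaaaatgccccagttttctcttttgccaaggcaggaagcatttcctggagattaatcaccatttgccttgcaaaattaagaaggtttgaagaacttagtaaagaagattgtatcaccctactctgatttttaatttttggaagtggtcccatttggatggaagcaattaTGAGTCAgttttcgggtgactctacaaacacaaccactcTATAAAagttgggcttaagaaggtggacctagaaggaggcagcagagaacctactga
Mmp10: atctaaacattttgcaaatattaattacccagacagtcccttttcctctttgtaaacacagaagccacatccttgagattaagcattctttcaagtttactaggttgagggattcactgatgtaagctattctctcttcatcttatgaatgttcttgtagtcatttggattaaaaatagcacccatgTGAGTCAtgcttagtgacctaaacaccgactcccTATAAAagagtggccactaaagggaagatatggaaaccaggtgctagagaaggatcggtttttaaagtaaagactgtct
Of the 45 members, 31 had a promoter in the RefSeq table. TGAGTCA, searched on both strands, was found in 6 of the 9 member genes of the cluster (*Mmp13*, *Mmp12*, *Mmp1b*, *Mmp3*, *Mmp10* and *Mmp7*) and in 0 of the other 22 members, against 5.20% of all 32851 promoters. TATAAA, searched on both strands, was found in 8 of the 9 and in 2 of the other 22 members (*Adamts1* and *Mmp21*), against 13.6% of all promoters. In *Mmp8* it was found only on the - strand, as TTTATA. A member was counted where any of its annotated starts held the motif, whereas the shares count each promoter by itself. The counts and shares are therefore in unlike units. The other *Mmp12* window, chr9:7344147-7344446, and 1 window of *Mmp7*, chr9:7692091-7692390, held neither motif. These matches describe the letters in the windows and no binding was measured.

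The 3 called genes of this cluster were all lower *in vivo* at 1 week and differed from each other at 2 weeks in whether they were called. *Mmp13* (collagenase-3), the main interstitial collagenase of the mouse, had 0.927 and 1.18 FPKM *in vivo* against 3.38 and 5.01 *in vitro* at 1 week, and 0.762 and 0.373 against 5.68 and 9.19 at 2 weeks. In each week both *in vitro* libraries were above the *in vivo* ones, with log2 fold changes of -1.88 ± 0.36 (limma, BH-adjusted p = 0.00578) and -3.52 ± 0.36 (limma, BH-adjusted p = 0.000272). The call at 1 week was lost without any 1 of the 4 libraries of that week, at log2 fold changes of -2.16 to -1.60, with adjusted p of 0.0014 to 0.046 over all alternatives. *Mmp12* (macrophage metalloelastase) had 4.93 and 5.50 FPKM *in vivo* against 13.7 and 18.3 *in vitro* at 1 week, and 4.85 and 3.60 against 8.33 and 10.4 at 2 weeks. It was lower *in vivo* by -1.58 ± 0.20 (limma, BH-adjusted p = 0.000797) and -1.13 ± 0.20 (limma, BH-adjusted p = 0.00286). Its call was lost at 1 week without the first *in vivo* library (-1.50), and at 2 weeks without the second *in vivo* (-0.92) or the second *in vitro* library (-0.98), with adjusted p of up to 0.024, as well as at 2 weeks with a pseudocount of 1 (-0.99) or only the 4 libraries of that week. *Mmp3* (stromelysin-1), which cuts proteoglycans and activates other MMP zymogens, had 11.1 and 14.9 FPKM *in vivo* against 45.7 and 33.9 *in vitro* at 1 week, and 36.5 and 32.2 against 32.4 and 33.2 at 2 weeks. It was lower *in vivo* at 1 week by -1.61 ± 0.18 (limma, BH-adjusted p = 0.000465), whereas the groups overlapped at 2 weeks, at 0.06 ± 0.18 and a 95% interval of -0.35 to 0.48.

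The remaining genes of the cluster were low. *Mmp27* had 0.799 to 2.01 FPKM *in vivo* and 2.65 to 3.64 *in vitro*, and its log2 fold change of -1.44 ± 0.32 at 1 week missed the threshold (limma, BH-adjusted p = 0.0102). *Mmp8* (neutrophil collagenase) had 0.112 to 1.27 FPKM over the 8 libraries. *Mmp10* (stromelysin-2) had 22 fragments in the *in vivo* and 2 in the *in vitro* libraries at 2 weeks, a ratio of FPKM of 13.5 with a 95% counting interval of 3.32 to 119, and was not called (limma, BH-adjusted p = 0.0246). *Mmp1b* reached no more than 2 fragments in a library, and *Mmp7* and *Mmp20* had 0 fragments in every library. These genes are close relatives, so that reads from one may be counted for another, and *Mmp12* and *Mmp1b* overlap on opposite strands while the use of strand in the counting is not stated.

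*Mmp9*, *Mmp12* and *Mmp13* are genes that macrophages can express. All 11 macrophage markers (among them *Ptprc*, *Cd68*, *Adgre1*, *Csf1r* and *Lyz2*) were above 0 in every library. Their summed FPKM was 2577 to 2940 *in vivo* against 5070 to 5786 *in vitro* at 1 week, and 1877 to 2269 against 4666 to 5739 at 2 weeks. *Lyz2*, set apart after its values were seen, held 49.4% to 70.5% of that sum. The other 10 markers summed to 1487 and 1246 *in vivo* against 1496 and 1772 *in vitro* at 1 week, and to 1067 and 902 against 1744 and 2027 at 2 weeks. At 1 week *Fcgr1* had 21.7 and 14.1 FPKM *in vivo* against 3.04 and 2.56 *in vitro*, and the groups overlapped for *Ptprc*, *Csf1r* and *C1qa*. At 1 week 1 of the 11 was higher *in vivo* and 1 lower, and at 2 weeks 0 were higher and 5 lower. The neutrophil list, which bears on *Mmp8* and *Mmp9*, summed to 8.22 to 8.38 FPKM *in vivo* against 2.44 to 3.69 *in vitro* at 1 week. At 2 weeks it summed to 3.09 to 9.57 against 2.55 to 3.45. Of its 2 genes tested, 0 were called at either week, and *Ly6g* was at 0 in every library. In such bulk samples fewer cells of a type and less RNA per cell cannot be told apart, and the part of macrophage RNA in these 3 MMPs was not tested. The 10 fibroblast markers were above 0 in every library and summed to 11014 to 14042 FPKM *in vivo* against 2424 to 3675 *in vitro*. Of the 10, 6 were higher at 1 week and 7 at 2 weeks, with 0 lower. *Pdgfra* was about level at 1 week, at 20.1 and 21.6 FPKM *in vivo* against 20.2 and 19.8 *in vitro*, and *Thy1* had 24.2 and 22.7 against 42.2 and 36.7. The 6 endothelial markers summed to at least 65.5 FPKM *in vivo* against at most 19.8 *in vitro* at 1 week and 57.7 to 61.9 against 37.9 to 44.1 at 2 weeks, with 5 and 2 higher *in vivo*. The 5 mast cell markers summed to 1.91 to 7.64 FPKM *in vivo* against 62.6 to 148.3 *in vitro*, where *Mcpt4* had 61.5 to 146.3. Of the 2 tested, 1 was lower at 1 week and 2 at 2 weeks, while *Cpa3*, *Fcer1a* and *Tpsb2* had at most 0.738 FPKM in any library. The 5 mesothelial markers were all lower *in vivo* at both weeks, at 11.5 to 28.8 FPKM *in vivo* against 180.4 to 407 *in vitro*. The 6 cardiomyocyte markers summed to 9.25 to 20.4 against 105 to 622. Of these 6, 5 were called lower *in vivo* at each week, with 0 higher at 1 week and 1 at 2 weeks. *Myl2*, at no more than 0.789 FPKM in any library, lay above the *in vitro* libraries at both weeks. The 5 reprogramming factors summed to 55.1 to 58.1 FPKM *in vivo* against 83.2 to 110.8 *in vitro*. Of these 5, 1 was lower *in vivo* at 1 week and 2 at 2 weeks, with 0 higher. The part of these cell types and factors in the members' differences was not tested.

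**Figure D3:**
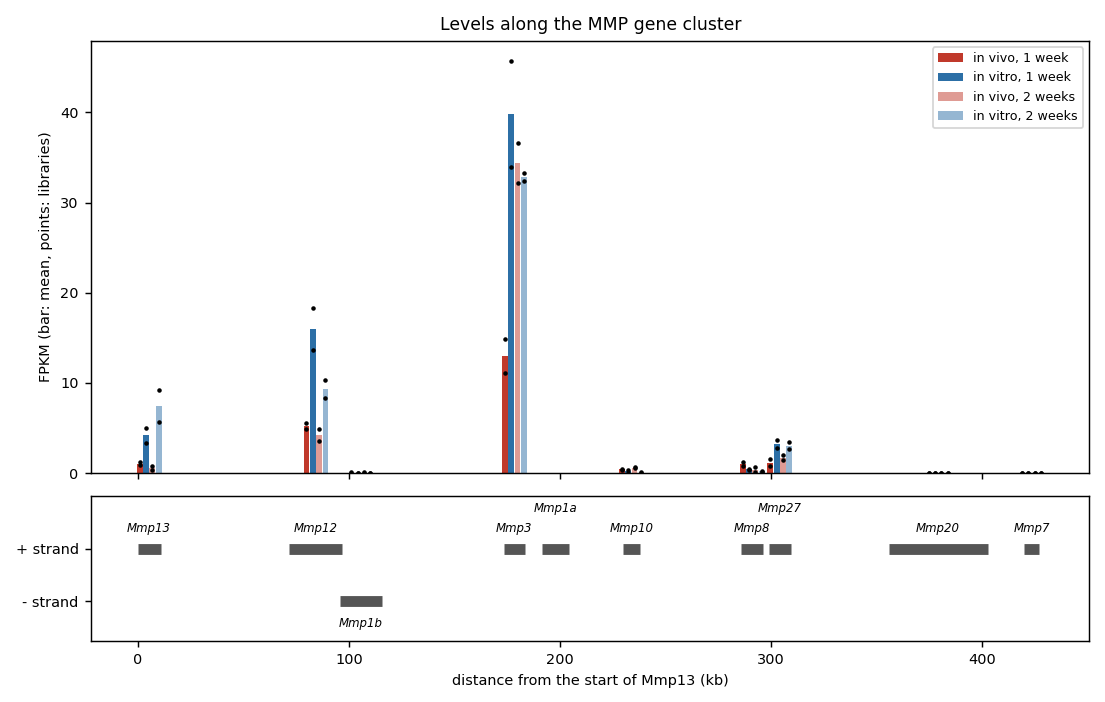
Bars (means) and points (libraries) give the FPKM (y axis) of the genes of the MMP cluster against their distance from the start of *Mmp13* in kb (x axis), with the gene positions on the + and - strands in the lower panel. *Mmp13* and *Mmp12* were higher *in vitro* (blue) at both weeks, *Mmp3* only in the 1 week bars, and the genes from *Mmp20* onward were at 0.

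TIMPs inhibit MMPs, and TIMP3 also inhibits ADAMTS aggrecanases. *Timp1* differed most. It had 466 and 509.6 FPKM *in vivo* against 201.2 and 164 *in vitro* at 1 week, and 411 and 429 against 56.2 and 62.3 at 2 weeks. The *in vivo* libraries were all above the *in vitro* libraries, with log2 fold changes of 1.42 ± 0.11 (limma, BH-adjusted p = 9.36e-05) and 2.83 ± 0.11 (limma, BH-adjusted p = 3.87e-06). Under quantile normalisation the call at 1 week was lost, at 0.81. *Timp2*, which also takes part in the activation of the MMP2 zymogen by MMP14, had 373 and 385 FPKM *in vivo* against 363 and 359 *in vitro* at 1 week, and 586 and 579.9 against 388 and 403 at 2 weeks. Its log2 fold changes of 0.07 ± 0.06 (95% interval -0.07 to 0.21) and 0.56 ± 0.06 were not called. *Timp3* lay in opposite orders at the 2 weeks. It had 112 and 132 FPKM *in vivo* against 185 and 186 *in vitro* at 1 week, and 155 and 152 against 99.3 and 96.3 at 2 weeks. The groups did not overlap at either week, and the log2 fold changes of -0.61 ± 0.08 and 0.65 ± 0.08 were under the size for a call, although the first reached it under quantile normalisation (-1.03). As a share of the TIMP sum, *Timp1* made up 49.0% and 49.6% *in vivo* against 26.9% and 23.1% *in vitro* at 1 week, and 35.7% and 37.0% against 10.3% and 11.1% at 2 weeks. *Timp4* had at most 0.337 FPKM and was not tested. *Timp1* lies inside *Syn1* and *Timp3* inside *Syn3*, on the opposite strands, and these hosts had at most 2.61 and 0.140 FPKM.

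**Figure D4:**
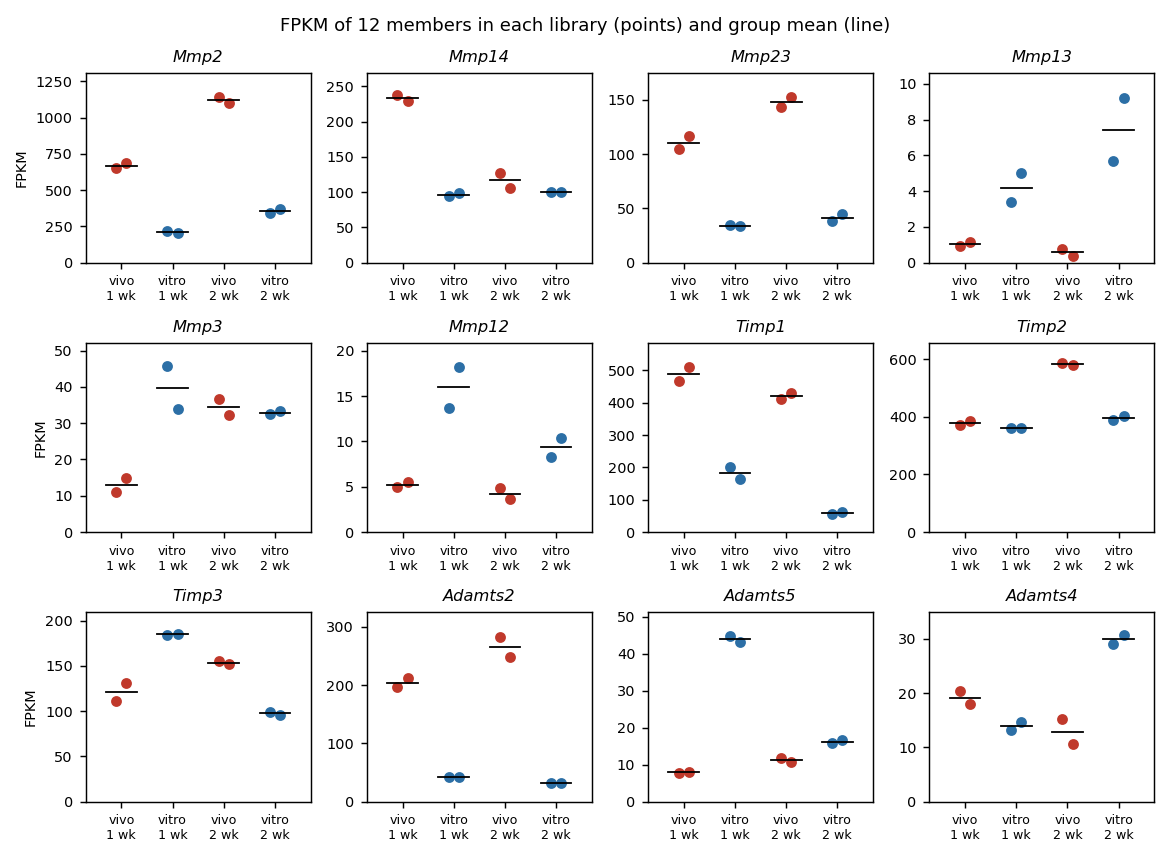
FPKM (y axis, each panel with its own scale from 0) of 12 members in the 8 libraries (points) and the group means (lines), with *in vivo* libraries in red and *in vitro* libraries in blue. *Mmp2*, *Mmp23*, *Timp1* and *Adamts2* were higher *in vivo* at both weeks, *Mmp13* and *Mmp12* lower, and *Timp3* and *Adamts4* changed their order between the weeks.

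The procollagen N-propeptidases remove the amino-terminal propeptide of fibrillar procollagens. *Adamts2*, which processes procollagens I to III, had 197 and 212 FPKM *in vivo* against 42.1 and 42.2 *in vitro* at 1 week, and 283 and 248 against 31.6 and 32.3 at 2 weeks. The lowest *in vivo* library was above 4 times the highest *in vitro* library. The log2 fold change was 2.27 ± 0.08 at 1 week (limma, BH-adjusted p = 2.57e-06) and 3.05 ± 0.08 at 2 weeks (limma, BH-adjusted p = 8.43e-07). *Adamts3*, with 1.92 to 2.52 FPKM *in vivo* against 0.610 to 0.799 *in vitro*, was higher by 1.47 ± 0.18 and 1.45 ± 0.18. Its call at 1 week was lost without the second *in vivo* library of that week, at a log2 fold change of 1.42. A pseudocount of 1 ended both calls, at 0.85 and 0.89, and the call at 2 weeks was also lost with only the 4 libraries of that week (limma, BH-adjusted p = 0.012). *Adamts14* had 8.38 and 7.49 FPKM *in vivo* against 5.22 and 5.81 *in vitro* at 1 week, and 3.65 and 3.24 against 2.39 and 2.26 at 2 weeks. The groups did not overlap, and the log2 fold changes of 0.52 ± 0.11 and 0.54 ± 0.11 were under the size for a call. In both conditions its level at 2 weeks was below that at 1 week.

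The proteoglycan-cleaving ADAMTS genes went in different directions. *Adamts5*, the main aggrecanase of mouse cartilage, had 7.85 and 8.04 FPKM *in vivo* against 44.7 and 43.1 *in vitro* at 1 week, and 11.9 and 10.8 against 15.9 and 16.6 at 2 weeks. It was lower *in vivo* at 1 week by -2.45 ± 0.07 (limma, BH-adjusted p = 1.37e-06), and at 2 weeks the difference of -0.52 ± 0.07 was under the size for a call. *Adamts4*, the other well-known aggrecanase, had 20.4 and 18 FPKM *in vivo* against 13.2 and 14.7 *in vitro* at 1 week, and 15.2 and 10.6 against 29.1 and 30.7 at 2 weeks. It lay above the *in vitro* libraries at 1 week without being called, at 0.45 ± 0.17, and was lower at 2 weeks, at -1.23 ± 0.17 (limma, BH-adjusted p = 0.000928). The call at 2 weeks was lost without the second *in vivo* library of that week, at -0.97, and with only the 4 libraries of that week (limma, BH-adjusted p = 0.018). *Adamts1*, which cleaves versican and aggrecan, was the most even of the abundant ADAMTS genes. It had 69.8 and 75.0 FPKM *in vivo* against 81.2 and 83.5 *in vitro* at 1 week, and 108 and 83.1 against 102 and 102 at 2 weeks. The 95% intervals of its log2 fold changes were -0.46 to 0.09 and -0.38 to 0.17. *Adamts1* and *Adamts5* are neighbours on chromosome 16, with a gap of 53.1 kb.

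*Adamts8* and *Adamts15*, both able to cleave proteoglycans, are neighbours on chromosome 9 with a gap of 20.1 kb, and both were higher *in vivo* at both weeks. *Adamts15* had 5.13 and 5.64 FPKM *in vivo* against 1.92 and 2.10 *in vitro* at 1 week, and 8.30 and 9.84 against 5.11 and 3.61 at 2 weeks. Its log2 fold changes were 1.38 ± 0.17 (limma, BH-adjusted p = 0.000884) and 1.05 ± 0.17 (limma, BH-adjusted p = 0.00235). The call at 1 week was lost without the second *in vivo* library (1.31), and that at 2 weeks without the second *in vivo* (0.93) or the second *in vitro* library (0.81), with adjusted p of up to 0.029 over all alternatives. The call at 2 weeks was lost as well without the scaling between libraries (0.73), with a pseudocount of 1 (0.92) and with only the 4 libraries of that week. *Adamts8* had 2.08 to 3.49 FPKM *in vivo* against 0.141 to 0.526 *in vitro*, at 3.21 ± 0.22 (limma, BH-adjusted p = 5.47e-05) and 2.40 ± 0.22 (limma, BH-adjusted p = 0.000154). *Adamts9* had 2.01 to 3.34 FPKM over the 8 libraries and was not called at either week, and *Adamts20* stayed under 0.37 FPKM and was not tested.

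*Adamts7* and *Adamts12* encode the proteases that cleave COMP. *Adamts12* had 21.9 and 21.5 FPKM *in vivo* against 7.60 and 7.52 *in vitro* at 1 week, and 8.90 and 7.18 against 5.91 and 5.51 at 2 weeks. It was higher *in vivo* at 1 week by 1.51 ± 0.11 (limma, BH-adjusted p = 6.33e-05), and at 2 weeks the difference of 0.48 ± 0.11 was under the size for a call. *Adamts7* had 6.76 and 7.21 FPKM *in vivo* against 4.47 and 5.08 *in vitro* at 1 week, and 5.47 and 4.71 against 7.52 and 7.64 at 2 weeks. The groups did not overlap at either week and lay in opposite orders, at 0.54 ± 0.11 and -0.57 ± 0.11, neither of the size for a call. *Adamts7* overlaps *Tbc1d2b* on the opposite strand (15.3 to 22.0 FPKM), so that reads of this pair may be counted together.

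Among the fibrillin-related and less characterised ADAMTS genes, *Adamts16* and *Adamts19* were at or close to 0 in the cultured cells. *Adamts16* had 6.58 and 6.78 FPKM *in vivo* at 1 week, from 527 and 604 fragments, and 0 fragments in both *in vitro* libraries. Set against a floor of 3 fragments in each *in vitro* library, the transplanted cells had an at least 231-fold higher level. At 2 weeks it had 5.13 and 2.57 FPKM *in vivo* against 0.0317 and 0.0108 *in vitro*, from 590 against 4 fragments, a ratio of 181 with a 95% interval of 70.4 to 667. Such intervals and floors cover counting error only, since PCR copies are not independent molecules. *Adamts19* had 1.03 and 0.872 FPKM *in vivo* at 1 week and 0 and 0.0143 *in vitro*, from 109 against 1 fragments, a ratio of 134 (23.5 to 5327). At 2 weeks it had 0.930 and 1.11 FPKM against 0.0620 and 0.0315, a ratio of 21.7 (9.65 to 60.5). Both genes entered the test only through their *in vivo* libraries, so that their calls at both weeks are a description and no support. The calls of *Adamts19* were lost with a pseudocount of 1, at 0.95 at both weeks. *Adamts6*, which acts on fibrillin microfibrils, had 6.88 and 7.18 FPKM *in vivo* against 0.508 and 0.601 *in vitro* at 1 week, and 7.81 and 7.95 against 0.742 and 0.556 at 2 weeks. The log2 fold changes were 3.45 ± 0.16 (limma, BH-adjusted p = 9.88e-06) and 3.42 ± 0.16 (limma, BH-adjusted p = 7.68e-06). *Adamts10*, a binding partner of fibrillin-1, had 62.9 and 66.2 FPKM *in vivo* against 25.8 and 28.1 *in vitro* at 1 week, and 69.8 and 80.3 against 32.4 and 30.9 at 2 weeks. It was higher by 1.26 ± 0.08 (limma, BH-adjusted p = 4.99e-05) and 1.24 ± 0.08 (limma, BH-adjusted p = 4.04e-05), and both fell under the size for a call without the scaling between libraries (0.92 and 0.91). *Adamts17* had 0.455 to 0.968 FPKM *in vivo* against 0.234 to 0.521 *in vitro*. It was higher at 1 week by 1.56 ± 0.32 (limma, BH-adjusted p = 0.00782), a call lost without any 1 of the 4 libraries of that week or of the 2 *in vitro* libraries of week 2, at 1.50 to 1.63. It was also lost with a pseudocount of 1, at 0.63, without the scaling between libraries, at 1.29, without a filter on low values and with only the 4 libraries of that week. *Adamts18* and *Adamts13*, which cleaves von Willebrand factor, had at most 2 fragments in a library.

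The genes around these proteases were counted from lists of related genes, which were chosen with earlier results of these data known. As a yardstick, 7.79% of all genes tested were called upward and 5.07% downward at 1 week. The shares of 2 weeks were 9.02% and 8.05%. No list here or in the next paragraph was tested against these shares, so 1 or 2 calls in a list are not read as an excess. All 9 tested ADAMTS substrates and binding partners were higher *in vivo* at both weeks, with a median log2 fold change of 3.07 and 3.12. *Vcan*, the proteoglycan versican, had 32.9 and 38.3 FPKM *in vivo* against 1.90 and 2.37 *in vitro* at 1 week, and 41.1 and 33.8 against 2.90 and 2.64 at 2 weeks. *Comp* had 146 and 195 FPKM *in vivo* and 0.197 and 0.180 *in vitro* at 1 week. Its level at 2 weeks was 1036 to 1071 FPKM *in vivo* and at most 0.658 *in vitro*. *Acan* (aggrecan), *Fbn1* and *Fbn2* (fibrillins), *Fbln1* (fibulin-1), *Bgn* (biglycan) and *Dcn* (decorin) were the other abundant genes of this list. Of 13 tested genes for the activation and control of matrix proteases, at 1 week 4 were higher and 0 lower *in vivo*, and at 2 weeks 5 and 1. *Serpine2* and *Tfpi2*, both protease inhibitors, were higher at both weeks. *Plau*, the urokinase plasminogen activator, had 38.4 and 41.6 FPKM *in vivo* against 59.6 and 79.96 *in vitro* at 1 week, and 20.8 and 17.6 against 142 and 187 at 2 weeks. It was lower *in vivo* at 2 weeks by -3.08 ± 0.18 (limma, BH-adjusted p = 2.12e-05) and not called at 1 week, at -0.79 ± 0.18. *Reck*, a membrane-anchored inhibitor of MMPs, had log2 fold changes of -0.19 ± 0.09 and 0.90 ± 0.09 and was called at neither week, while the difference between the weeks was called at 1.09 ± 0.12 (limma, BH-adjusted p = 0.00535).

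Of 7 ADAMTS-like genes and papilin, which lack a protease domain, at 1 week 3 were higher and 1 lower *in vivo*, and at 2 weeks 4 and 1. *Adamtsl2* had 105 and 121 FPKM *in vivo* against 14.2 and 14.9 *in vitro* at 1 week, and *Adamtsl3* and *Adamtsl4* were also higher at both weeks, whereas *Thsd4* was lower at both. Of 10 tested ADAM genes, at 1 week 2 were higher and 1 lower, and at 2 weeks 1 and 2. Of 7 cysteine or serine proteases, 4 were higher at 1 week and 3 at 2 weeks, with 0 and 1 lower. *Ctsk* (cathepsin K, a collagenolytic lysosomal enzyme), *Htra3* and *Fap* were higher at both weeks. Of 3 tested genes of the BMP1 group, *Bmp1*, the procollagen C-proteinase, was higher at both weeks, at 96.8 to 120.0 FPKM *in vivo* against 25.3 to 30.4 *in vitro*.

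The course from 1 week to 2 weeks differed between the conditions for 7 members. *In vivo*, 1 member (*Mmp3*) was higher at 2 weeks than at 1 week and 3 (*Mmp14*, *Adamts12* and *Adamts14*) were lower, where 1.23% of all genes were higher and 0.949% lower. *In vitro*, 4 members (*Mmp15*, *Adamts4*, *Adamts8* and *Adamts15*) were higher and 3 (*Timp1*, *Adamts5* and *Adamts14*) lower, where 2.76% of all genes were higher and 1.05% lower. *Adamts14* was the 1 member called in both, at -1.18 ± 0.11 *in vivo* (limma, BH-adjusted p = 0.00164) and -1.21 ± 0.11 *in vitro* (limma, BH-adjusted p = 0.000892). *Mmp3* rose *in vivo* by 1.41 ± 0.18 (limma, BH-adjusted p = 0.00421). *Mmp14* fell by 1.00 ± 0.09 (limma, BH-adjusted p = 0.00142) and *Adamts12* by 1.43 ± 0.11 (limma, BH-adjusted p = 0.000902). *Mmp2* had nearly the same course in both conditions, at 0.74 ± 0.08 *in vivo* and 0.75 ± 0.08 *in vitro*, without reaching the size for a call, and the difference of its 2 contrasts had a 95% interval of -0.26 to 0.26. In a test of the difference itself, week 2 minus week 1 of the *in vivo* minus *in vitro* contrast, 3 members were higher and 4 lower, where 0.573% of all genes were higher and 1.15% lower. The higher ones were *Adamts5* at 1.93 ± 0.10 (limma, BH-adjusted p = 0.000928), *Timp1* at 1.40 ± 0.16 (limma, BH-adjusted p = 0.00526) and *Timp3* at 1.26 ± 0.12 (limma, BH-adjusted p = 0.0035).

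The lower ones were *Adamts4* at -1.68 ± 0.23, *Mmp15* at -1.46 ± 0.20, *Adamts7* at -1.11 ± 0.15 and *Mmp14* at -1.06 ± 0.13 (limma, BH-adjusted p of 0.00623 to 0.00888). In *Adamts5* and *Timp1* most of the difference came with a fall *in vitro*, of 1.43 ± 0.07 and 1.62 ± 0.11 on the log2 scale, and in *Mmp15* and *Adamts4* with a rise *in vitro*, of 1.41 ± 0.14 and 1.09 ± 0.17. In *Mmp14* it came with the fall *in vivo*. These calls across time were the least stable of the members. Without any 1 of the 8 libraries 0 of the 4 lower and at most 1 of the 3 higher members were still called, with adjusted p of up to 0.051. *Adamts5* kept its call without the second *in vitro* library of week 1 and without either *in vivo* library of week 2. The log2 differences ranged from 1.14 to 2.0 for the higher members and from -1.95 to -0.92 for the lower ones over these fits, so the directions did not turn. The *in vivo* calls of *Mmp3*, *Mmp14*, *Adamts12* and *Adamts14* between the weeks were each lost without either *in vivo* library of week 1, at adjusted p of up to 0.034. *In vitro*, *Adamts5* and *Timp1* kept their calls without any 1 library. The call of *Adamts8* was lost without any 1 of the 8 (adjusted p 0.01 to 0.053), that of *Adamts15* in 7, *Adamts4* in 6, *Mmp15* in 3 and *Adamts14* in 2 of these 8 fits.

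**Figure D5:**
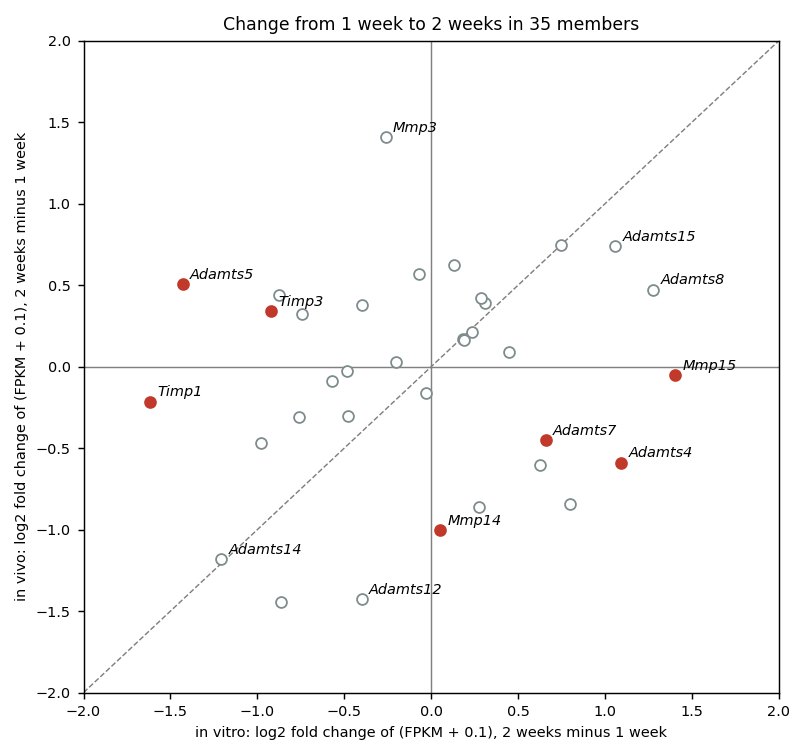
Each point is 1 of the 35 members, with its log2 fold change from 1 week to 2 weeks *in vitro* (x axis) and *in vivo* (y axis), and the dashed line marks equal change. Red points are the 7 members whose difference between the conditions was called, named together with the members called in either condition. *Timp1*, *Timp3* and *Adamts5* lie above the line at the left, and *Mmp14*, *Mmp15*, *Adamts4* and *Adamts7* below it at the right.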

How the data were processed

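The 8 libraries hold RNA of eGFP+ MICFs from transplanted hearts or culture, 2 per group. Per the labels, libraries were made with a SMARTER mRNA kit, and the submitters' processing notes name CASAVA, HISAT2 (version 2.0.5) and mm10. The counting tool and its use of strand are not given in the sources used here. The values deposited by the authors are FPKM per gene, which already included a scaling between libraries. Dividing FPKM times gene length by its smallest step gave whole fragments for 100% of genes (tolerance 0.05), and from these the floors of 3 fragments, with 12304242 to 14546904 fragments per library. Intervals from fragments cover counting error only.

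log2(FPKM + 0.1) was fitted, for genes reaching an FPKM of 0.5 in 2 or more libraries, with limma 3.58.1 (R 4.3.3) over the 4 groups, with moderated variances that follow the intensity, and p-values were adjusted by the Benjamini-Hochberg method over all 15708 genes. Fits were tested on simulated data. The 20 alternatives changed the pseudocount, the filter, the gene set, the scaling, the libraries fitted, the variance trend or the threshold, added a replicate block, used limma voom on fragments, or left out 1 library. Replicates differed by more than sampling noise (chi-square per gene 4.50 to 9.93). Deviations of replicate 1 from its group mean were hardly correlated between the conditions of a week (r of -0.0199 and -0.0219 across genes, which are not independent). With 2 libraries per group this cannot show whether replicates of the same number shared cells or a batch. Of 54495 gene identifiers shared with GENCODE vM21 (GRCm38), 98.3% kept their coordinates.

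The members, related gene lists and marker lists were chosen with earlier results of these data known. Values in every library were given for tested members whose mean FPKM reached 5 in a group, and for members at 0 to 3 fragments in a group that were called. From the related lists, genes that reached this mean and were called at both weeks could be named, with *Comp*, *Vcan*, *Plau* and *Reck* among those named in any case. A gene of that rule is not reported here. Columns not matched to a sample numbered 0.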

Additional observations from a re-analysis of the deposited data

Results flagged for a closer look

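In 7 members the *in vivo* minus *in vitro* difference itself differed between the weeks in the test of that difference (limma, adjusted by the Benjamini-Hochberg method over all genes). Week 2 minus week 1 of the log2 difference was 1.93 for *Adamts5*, 1.40 for *Timp1* and 1.26 for *Timp3*. It was -1.68 for *Adamts4*, -1.46 for *Mmp15*, -1.11 for *Adamts7* and -1.06 for *Mmp14*. Each of these calls was lost without some 1 library, and *Timp1*, *Timp3* and the 4 lower members lost theirs without any 1 of the 8.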

How the results depend on the processing

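Of 55 called results of members, 20 held under all 20 alternatives, 9 of them at 1 week and 11 at 2 weeks. The 20 include the calls of *Adamts16* at both weeks, and the 55 also those of *Adamts19*. Both genes entered the test only through their *in vivo* libraries, so that these calls are no support. Of 77 compared results, 0 turned their direction. Without 1 library each, the members higher *in vivo* numbered 11 to 16 at 1 week (16 with all libraries) and 12 to 13 at 2 weeks (13), and the lower ones 3 to 5 (4) and 2 to 5 (4). For the difference between the weeks these fits gave 0 to 1 higher (3) and 0 to 0 lower (4), for the time course *in vivo* 0 to 1 higher (1) and 0 to 3 lower (3), and *in vitro* 0 to 2 higher (4) and 2 to 3 lower (3). Without the scaling between libraries 7 members were lower at 1 week. With only the 4 libraries of each comparison, 2 were lower at 2 weeks, 0 and 0 were higher and lower over time *in vivo*, and 0 and 0 *in vitro*. With no filter, the replicate block or no intensity trend, the difference between the weeks had 1 member higher and 0 lower, and 0 were higher over time *in vivo*, and over time *in vitro* the higher members numbered 1 with no filter, 1 with the replicate block and 2 with no trend. A pseudocount of 0.01 left 2 lower for the difference between the weeks, and a pseudocount of 1 or quantile normalisation left 2 higher over time *in vitro*. Genes of the related lists called lower *in vivo* at 1 week (2) numbered 1 with no filter and 4 under quantile normalisation or without scaling, and those at 2 weeks (5) numbered 2 with only the 4 libraries compared. The replicate block, which the labels do not justify as a pairing, also ended the calls of *Mmp13* (adjusted p 0.011) and *Adamts17* (0.012) at 1 week. The causes of these changes were not tested, apart from the fewer libraries or the added low genes that some alternatives hold by construction. Each group had 2 libraries, and what limits the calls of genes with many fragments was not tested.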
